A study of Mus musculus with 15 samples.

Results

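Cell cycle entry is run by cyclins, the cyclin-dependent kinases (CDKs) they switch on, and the inhibitors that hold those kinases back. Transcripts of 10 such regulators, given as a list of symbols, were followed in mouse embryonic stem cells (ESCs) that lose the transcription factor OCT4. They are the D cyclins *Ccnd1*, *Ccnd2* and *Ccnd3*, their kinase *Cdk6*, the E cyclins *Ccne1* and *Ccne2*, the A and B cyclins *Ccna2* and *Ccnb1*, and the inhibitor genes *Cdkn1b* and *Cdkn2a*. All 10 were counted in every library, out of 48709 genes, and all 10 passed the expression filter of the CreER test.

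The 15 libraries of ribosome-depleted total RNA came from 2 kinds of ESC, both grown in N2B27 with PD03, Chiron and LIF, where PD03 and Chiron are inhibitors of MEK and GSK3 and LIF supports self-renewal. CreER ESCs (genotype Oct4Fl/-; CAG CreER, strain Mixed 129SV C57BL/6) carry 1 floxed and 1 null Oct4 allele and a Cre recombinase that 500 nM 4-OHT activates. There were 2 replicates of untreated cells (0 h) and 2 of each treated time (12, 18, 24 and 36 h). O4AID ESCs (genotype Oct4-/- with TetOFF Oct4, CAG Oct4AID and CAG Tir1, strain 129SV) depend on a degron-tagged OCT4 protein that 500 µM IAA, an auxin, sends for degradation. They were sampled at 0, 1.5, 6, 10 and 24 h with 1 library at each time, and doxycycline (1 µg/ml) kept their wild-type Oct4 transgene off throughout. In both lines the CAG promoter, which is active in most cells, drives the transgenes. The labels name 2 replicates per CreER time without saying whether they were separate cultures, so p-values measure the spread between these libraries, and O4AID results compare single libraries and carry no p-value.

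D cyclins bind CDK4 or CDK6 and start the phosphorylation of the retinoblastoma protein RB, which frees E2F transcription factors. Cyclin E with CDK2 completes that step at the start of S phase, cyclin A acts through S phase and cyclin B with CDK1 drives mitosis. Mouse ESCs are known for a short G1 phase with abundant cyclin E and little effective inhibitor, and they lengthen G1 when they differentiate.

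Depth and the targeted gene were examined first. Each CreER library held 21.7 to 30.8 M (mega) counted reads and each O4AID library 40.5 to 48.7 M. *Pou5f1*, which encodes OCT4, stood at 324 and 316 counts per mega-count (CPM, scaled by TMM over all 15 libraries) in the CreER replicates at 0 h and at 112 and 124 CPM at 36 h. In O4AID, where IAA acts on protein, it stood between 637 and 854 CPM, so its mRNA is no check of treatment there. Naive ESC markers, 8 genes that include *Nanog* and *Sox2*, summed to 1800 to 1920 CPM in the CreER libraries and went from 5200 CPM to 1350 CPM over 24 h in O4AID, and none was at 0. The summed level of 10 trophectoderm and trophoblast markers went from 333 to 348 CPM at 0 h to 677 to 715 CPM at 36 h in CreER, and from 118 to 181 CPM in O4AID. Over the same times 6 primitive endoderm markers went from 14.4 to 16.6 CPM to 36.2 to 36.8 CPM in CreER and from 10.5 to 45.4 CPM in O4AID. Fibroblast markers, 8 genes, summed to 8.31 to 10.3 CPM in CreER and 2.72 to 5.02 CPM in O4AID, with 3 to 5 of the 8 at 0 in each O4AID library. The part of these other cell states in the results that follow was not tested, and in bulk RNA fewer cells of a type and less RNA per cell cannot be told apart.

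In untreated cells the order of the regulators differed between the lines. Levels per kb of annotated exon were used to set genes beside each other. They depend on the annotated length, which covers the exons of all annotated transcripts of a gene and not only those present. In CreER they ran from *Ccne1* at 121 ± 3.81 CPM per kb (SD, n = 2) through *Ccna2* at 73.4 ± 4.19, *Ccnd1* at 36.9 ± 1.74, *Ccnb1* at 34.2 ± 1.63, *Ccne2* at 10.6 ± 0.245 and *Ccnd3* at 10.5 ± 1.19 CPM per kb. Below them stood *Cdkn1b* at 6.02 ± 0.174, *Cdkn2a* at 5.50 ± 0.418, *Cdk6* at 4.32 ± 0.241 and *Ccnd2* at 1.41 ± 0.0484 CPM per kb. Neighbours in that order lay within the sum of their SDs for *Ccnd1* and *Ccnb1*, for *Ccne2* and *Ccnd3*, and for *Cdkn1b* and *Cdkn2a*. In O4AID the order was *Ccnb1* at 97.8, *Ccna2* at 69.6, *Ccne1* at 42.9, *Ccnd3* at 33.2, *Cdkn2a* at 21.9, *Cdkn1b* at 14.97, *Ccnd1* at 8.63, *Ccne2* at 5.15, *Cdk6* at 4.65 and *Ccnd2* at 0.177 CPM per kb. *Ccne1* thus led in CreER and *Ccnb1* in O4AID, while *Ccnd2* was lowest in both.

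Gene by gene, untreated O4AID cells held more *Cdkn2a* (3.98-fold the CreER mean), *Ccnd3* (3.15-fold), *Ccnb1* (2.86-fold) and *Cdkn1b* (2.49-fold, all in CPM). They held less of the other D and E cyclins, with CreER higher 7.95-fold for *Ccnd2*, 4.27-fold for *Ccnd1*, 2.82-fold for *Ccne1* and 2.06-fold for *Ccne2*. *Ccna2* and *Cdk6* stood at 0.948 and 1.08 times the CreER mean. Over all times the libraries of the lines overlapped for *Ccnd2*, *Ccna2* and *Cdk6* and were apart for the other members. The share of all genes whose libraries were apart in this way was not counted. Of 16070 genes at 1 CPM or more in either untreated line, 37.0% differed by at least 2-fold between the lines and 20.15% by at least 3-fold (ratio of CPM plus 1). Strain, transgenes, doxycycline and library series cannot be told apart here, and no test between the lines was made.

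The *Ccnb1* difference came with a difference at near-identical copies of the gene. *Ccnb1* (ENSMUSG00000041431, chromosome 13, 100778650 to 100786570, minus strand, GRCm38) has 3 annotated copies found by alignment of transcripts at 90% identity or more over at least 300 bases. The copy *Ccnb1-ps* on chromosome 7 (42105899 to 42107185) differs from the 1293 coding bases of *Ccnb1* at 10 of 1287 aligned positions, with an unbroken identical run of up to 278 bases. *Gm12856* on chromosome 4 (118942060 to 118943352) differs at 23 positions, and *Gm4870* on chromosome 5 aligned at 94.4% identity. The stretch below, coding bases 375 to 474 of *Ccnb1*, is the 100-base window of a single exon that separates *Ccnb1* from *Ccnb1-ps* best. It is shown because reads that lie wholly in the aligned coding bases can be assigned only by such differences. The annotated exons of *Ccnb1* hold 4217 bases, more than its coding bases. Capitals mark the positions at which any of the 3 sequences differ; *Ccnb1* and *Ccnb1-ps* differ at 3 of them and *Ccnb1* and *Gm12856* at 2. The windows lie at chr13:100783528-100783627, chr7:42106712-42106811 and chr4:118942879-118942978, all on the minus strand.
Ccnb1: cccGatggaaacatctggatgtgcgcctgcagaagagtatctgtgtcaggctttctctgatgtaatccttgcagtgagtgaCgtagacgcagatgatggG
Ccnb1-ps: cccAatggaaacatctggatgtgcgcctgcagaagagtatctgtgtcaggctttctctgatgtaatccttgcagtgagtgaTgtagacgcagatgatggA
Gm12856: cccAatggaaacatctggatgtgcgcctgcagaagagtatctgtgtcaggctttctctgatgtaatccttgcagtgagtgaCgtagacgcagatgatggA

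Reads were counted at these copies in CreER cells and hardly at all in O4AID cells. *Ccnb1-ps* held 110 to 126 CPM in the 10 CreER libraries and 0.615 to 1.42 CPM in the 5 O4AID libraries. *Gm12856* held 36.4 to 40.9 CPM in CreER and 0.571 to 1.24 CPM in O4AID, and *Gm4870* stayed under 1 CPM in both. The 3 copies together made up 50.6 to 54.5% of the reads summed over *Ccnb1* and its copies in CreER, against 0.452 to 0.667% in O4AID. With the copies added, untreated O4AID stood at 1.36 times CreER (415 against 306 CPM), in place of 2.86-fold for *Ccnb1* alone. How reads with several matches were counted is not given in the sources used here, so whether these reads belong to the copies or to *Ccnb1* was not tested. The copies of *Ccnd3* and *Cdk6* (*Ccnd3-ps* and *Gm16505*) held at most 1.09 and 0.264 CPM in any library, and no other member had a copy at that identity.

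**Figure D1:**
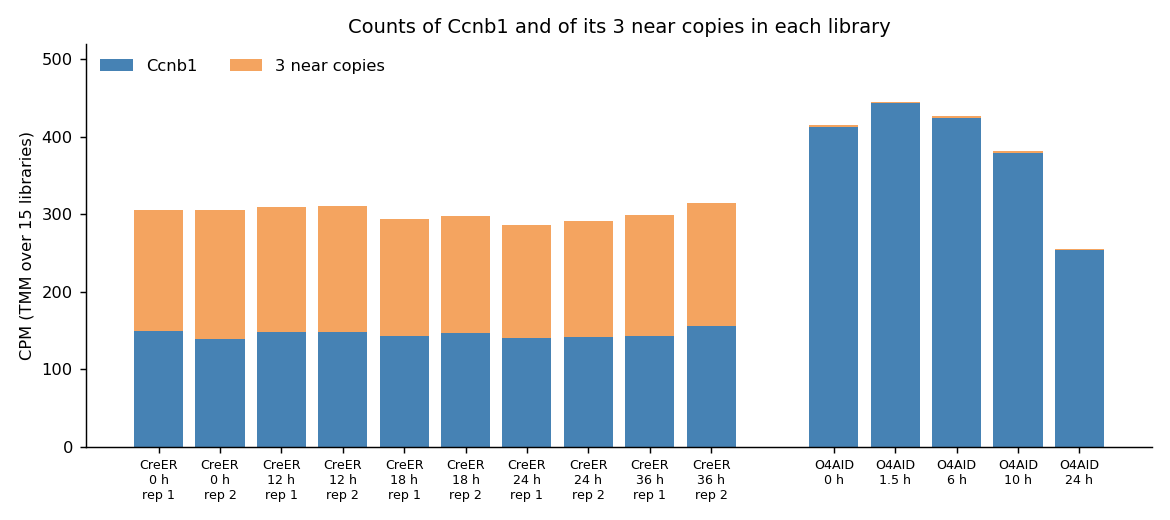
Each bar is 1 library, with the CPM of *Ccnb1* in blue and of its 3 near copies stacked in orange (vertical axis, CPM scaled by TMM over 15 libraries). The copies take 50.6 to 54.5% of each CreER bar and under 1% of each O4AID bar, and the O4AID bars shrink at 24 h.

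The question for the time courses was which cell cycle regulators moved after the treatment that removes OCT4. Each time was set against 0 h, and neither line has an untreated library at a later time. Time in culture, the 4-OHT or IAA itself and the loss of OCT4 therefore cannot be told apart in these libraries. In the study's qRT-PCR and western blot courses of floxed Oct4 cells, 4-OHT was added together with a change to medium with serum and LIF. The paper does not say whether the sequenced CreER cells had that change, which could then not be told apart either. A member was called in CreER at an adjusted p under 0.05 (edgeR quasi-likelihood test, Benjamini-Hochberg over 18969 genes). At 12 h edgeR called 0 of the 10 members, of which 0 had an unadjusted p under 0.05, and DESeq2 and limma-voom also called 0. Over all genes tested 0.258% were called higher and 0.137% lower at that time. At 18 h 1 member (*Cdk6*) was lower and 0 were higher, against 4.73% of all genes higher and 3.79% lower. At 24 h and again at 36 h 1 member was higher (*Ccnd3*) and 5 were lower (*Ccnd1*, *Ccnd2*, *Ccne1*, *Ccne2* and *Cdk6*). The shares of all genes were 11.0% higher and 10.6% lower at 24 h, and 19.4% higher and 17.2% lower at 36 h. The median log2 fold change of the members was -0.12 at 24 h and -0.11 at 36 h, beside 0.01 over all genes at both times. Whether both replicates of a time lay apart from both of 0 h was no part of a call. Members apart in this way were 1 upwards and 1 downwards at 12 h, and 1 upwards and 5 downwards at 18 h. With so few replicates such separation can arise by chance, and its share over all genes was not counted.

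In O4AID a gene was counted when its CPM plus 1 differed from 0 h by 1.5-fold or more. No member passed at 1.5 h, when 0.264% of 13995 genes were past that fold upwards and 0.572% downwards. At 6 h 1 member (*Cdk6*) was past it downwards and 0 upwards, against 2.66% of all genes upwards and 2.82% downwards. At 10 h 1 member was past it in each direction (*Ccnd2* upwards, *Cdk6* downwards), with 5.25% of all genes upwards and 4.58% downwards. At 24 h 1 member (*Ccnd2*) was past it upwards and 4 (*Ccnd1*, *Ccnd3*, *Ccnb1* and *Cdk6*) downwards, with 12.8% and 10.8% of all genes. The median log2 ratio of the members at 24 h was -0.38, beside -0.02 over all genes.

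**Figure D2:**
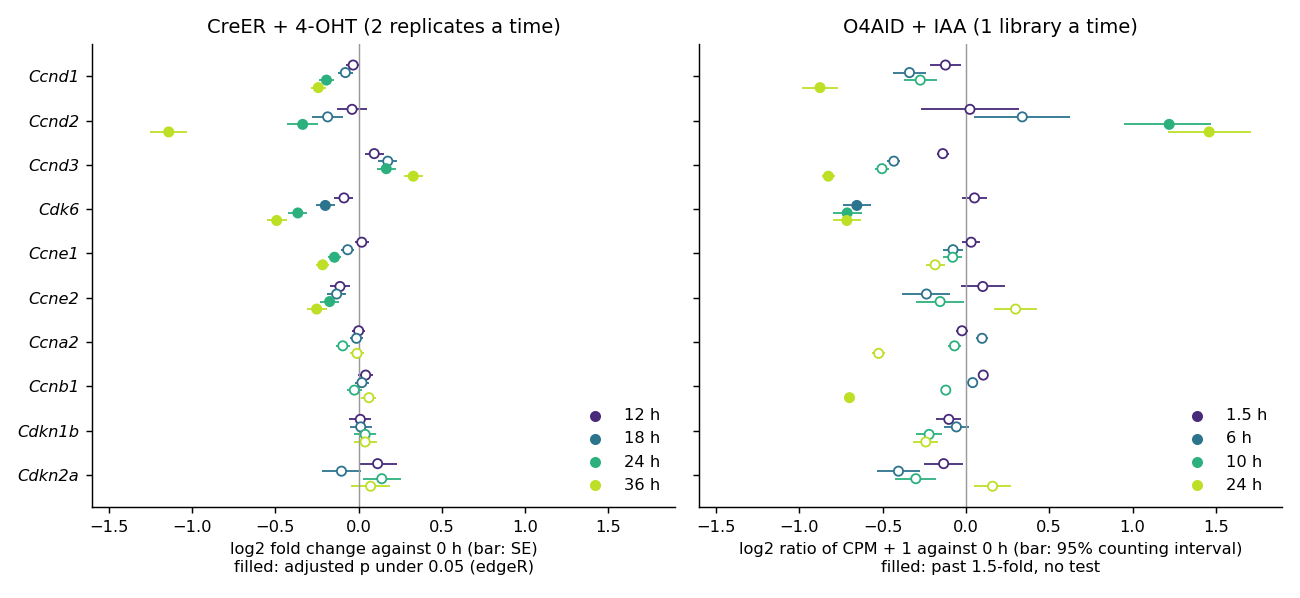
Log2 changes of the 10 members against 0 h in CreER (left, bars SE) and in O4AID (right, log2 ratio of CPM + 1, bars 95% counting intervals), with 1 colour per time. Filled points were called by edgeR on the left and were past 1.5-fold, without a test, on the right; *Ccnd2* goes to -1.14 on the left at 36 h and to 1.46 on the right at 24 h.

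The 3 D cyclins did not move together. *Ccnd1*, the D cyclin that mitogen and WNT signalling induce in many cells, was the most abundant of them in CreER and fell in both systems. The CreER replicates gave 179 and 168 CPM at 0 h, 169 and 169 at 12 h, 167 and 159.9 at 18 h, 150.2 and 152 at 24 h, and 149.5 and 142 CPM at 36 h. From 18 h on both replicates lay below both 0 h replicates, but the change was called only at 24 h (log2 fold change -0.19, SE 0.043, adjusted p 0.00181) and 36 h (-0.24, SE 0.044, adjusted p 6.99e-05). In O4AID it stood at 40.6, 37.2, 31.9, 33.4 and 21.7 CPM in order of time. The 24 h library was 1.87-fold below 0 h (log2 ratio -0.88, 95% counting interval -0.98 to -0.77). The opposite-strand gene LTO1 overlaps 23.4% of the *Ccnd1* exon bases and held 252 to 537 reads per library against 987 to 5328 for *Ccnd1*. The libraries are directional, but the strand setting of the counting is not given in the sources used here.

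*Ccnd2*, the least abundant D cyclin in either line, moved in opposite directions. In CreER it stood at 12.9 and 13.6 CPM at 0 h, 12.7 and 13.02 at 12 h, 11.1 and 12.1 at 18 h, 10.5 and 10.3 at 24 h, and 6.67 and 5.16 CPM at 36 h. All the replicates from 18 h on lay below those of 0 h, but 18 h was not called. The fall was called at 24 h (log2 fold change -0.34, SE 0.095, adjusted p 0.0114) and 36 h (-1.14, SE 0.11, adjusted p 2.99e-09). The 24 h call was lost without replicate 2 of 0 h (adjusted p 0.0858), replicate 1 of 24 h (0.0642) or replicate 2 of 24 h (0.0772) and with DESeq2 (0.0565). At 36 h it was the largest change among the members, with the mean 2.20-fold below 0 h. In O4AID *Ccnd2* stood at 1.67 CPM (74 reads) untreated, then 1.71, 2.37 and 5.19 CPM, and it reached 6.35 CPM (289 reads) in the 24 h library. Its log2 ratio was 1.22 at 10 h (95% counting interval 0.95 to 1.47) and 1.46 at 24 h (1.21 to 1.71), and with a pseudocount of 0.1 the 24 h value was 1.87. The direct ratio of CPM at 24 h was 3.81. With CPM of 10 or more required in either library, *Ccnd2* was not counted in O4AID.

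*Ccnd3*, which many blood and muscle cells rely on, showed the reverse. The CreER replicates gave 99.9 and 85.2 CPM at 0 h, 98.1 and 98.3 at 12 h, 107 and 101 at 18 h, 103 and 103 at 24 h, and 118 and 111 CPM at 36 h. The 2 untreated replicates were further apart than those of any later time, and both replicates at 18, 24 and 36 h lay above both of them. The rise was not called at 18 h. It was called at 24 h (log2 fold change 0.17, SE 0.056, adjusted p 0.0347) and 36 h (0.33, SE 0.056, adjusted p 4.88e-05). Without replicate 2 of 0 h, the lower of the untreated libraries, the 24 h value was 0.05 with an adjusted p of 0.549. The 24 h call was also lost without replicate 1 (0.151) or replicate 2 (0.139) of 24 h, with DESeq2 (0.106) and with only the 4 libraries compared (0.085), while the 36 h call held in every setting tried. In O4AID *Ccnd3* was lower at each later time, with 291 CPM untreated and then 264, 215, 205 and 164 CPM. The last library, at 24 h, was 1.78-fold below 0 h (log2 ratio -0.83, 95% counting interval -0.87 to -0.79). *Bysl* on the opposite strand overlaps 4.11% of the *Ccnd3* exon bases and held 1684 to 4001 reads per library, against 2356 to 12935 for *Ccnd3*.

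*Ccnd3* has 2 promoter windows in the RefSeq table for GRCm38.p6 and a count per gene adds up transcripts from both starts. They are shown because the count cannot say which start carried the change. The upstream window gave 250 bases before its start at chr17:47504801-47505050 and the downstream window 219 bases at chr17:47593217-47593435, both on the plus strand and 5′ to 3′.
Ccnd3 upstream start: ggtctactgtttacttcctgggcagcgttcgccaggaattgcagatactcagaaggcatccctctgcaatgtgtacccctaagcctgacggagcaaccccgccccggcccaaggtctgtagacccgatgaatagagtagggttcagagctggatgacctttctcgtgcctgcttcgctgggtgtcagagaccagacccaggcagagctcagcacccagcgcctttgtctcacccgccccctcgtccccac
Ccnd3 downstream start: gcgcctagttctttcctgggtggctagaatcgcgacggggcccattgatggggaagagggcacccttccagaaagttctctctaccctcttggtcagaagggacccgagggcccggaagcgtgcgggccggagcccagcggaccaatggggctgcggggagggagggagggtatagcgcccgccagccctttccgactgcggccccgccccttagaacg

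The balance of the 3 D cyclins, per kb of exon, was different in each line, and the leading gene stayed the same in each. In CreER *Ccnd1* made up 75.6% ± 0.895 (SD, n = 2) of the summed D cyclin level at 0 h, *Ccnd3* 21.6% ± 1.17 and *Ccnd2* 2.89% ± 0.270. At 36 h the shares were 69.3% ± 0.220, 29.3% ± 0.0245 and 1.40% ± 0.196, and both replicates lay outside the 0 h replicates for each gene. The sum went from 48.8 ± 2.89 to 44.6 ± 1.88 CPM per kb, and the replicates at 36 h (43.3 and 46.0) lay below those at 0 h (46.8 and 50.9). In O4AID *Ccnd3* made up 79.0% at 0 h and 77.96% at 24 h, *Ccnd1* 20.6% and 19.2%, and *Ccnd2* 0.422% and 2.82%. There the sum went from 42.0 to 24.0 CPM per kb, through 38.2, 31.6 and 31.0 at the times between. On this scale the sums of untreated cells were similar in the 2 lines, with *Ccnd1* leading in CreER and *Ccnd3* in O4AID. The shares and sums rest on the annotated exon bases, 4709 for *Ccnd1*, 9409 for *Ccnd2* and 8775 for *Ccnd3*. Which transcripts were present was not measured, and other lengths would give other shares and sums.

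**Figure D3:**
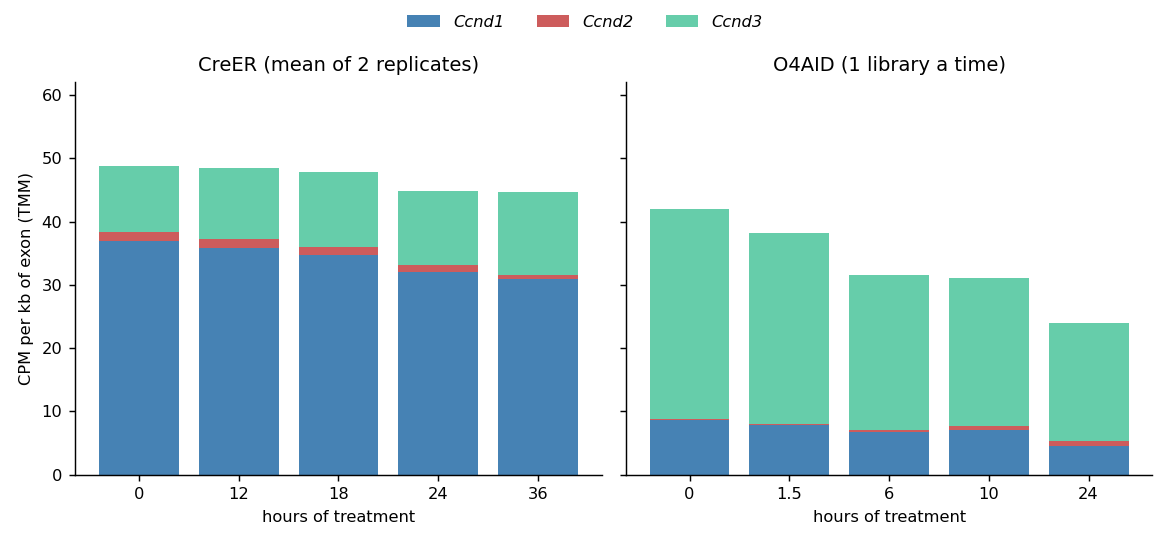
Stacked bars give the level of *Ccnd1*, *Ccnd2* and *Ccnd3* in CPM per kb of exon at each time, as means of 2 replicates in CreER and single libraries in O4AID. Blue *Ccnd1* fills most of each CreER bar and green *Ccnd3* most of each O4AID bar, and the O4AID sum goes from 42.0 to 24.0.

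*Cdk6*, a kinase partner of the D cyclins beside *Cdk4*, fell in both systems from a like starting level. In CreER *Cdk6* stood at 62.8 and 58.0 CPM at 0 h, 53.6 and 59.7 at 12 h, 53.9 and 50.7 at 18 h, 46.9 and 46.2 at 24 h, and 42.6 and 42.5 CPM at 36 h. It was the single member called at 18 h (log2 fold change -0.20, SE 0.057, adjusted p 0.0274), and the fall continued at 24 h (-0.36, SE 0.058, adjusted p 3.28e-05) and 36 h (-0.49, SE 0.060, adjusted p 1.85e-07). The 18 h call was lost without replicate 1 of 0 h (adjusted p 0.165), replicate 1 of 18 h (0.0696) or replicate 2 of 18 h (0.273) and with DESeq2 (0.068) or only the 4 libraries compared (0.0545), whereas the later calls held in every setting tried. In O4AID *Cdk6* stood at 65.0 CPM at 0 h and 67.4 at 1.5 h, and then at 40.9, 39.3 and 39.2 CPM at 6, 10 and 24 h. The drop between 1.5 h and 6 h made it the only member past 1.5-fold at 6 h (log2 ratio -0.65, 95% counting interval -0.74 to -0.57), and the 3 later libraries lay within counting error of each other. Over the settings tried the 6 h ratio ran from -0.71 to -0.59, at its smallest close to the 1.5-fold line. *Cdk6* (chromosome 5, 3341485 to 3531008, plus strand) spans 189524 bases with 13989 exon bases, and the 1.5 h and 0 h libraries differed by 0.05 on the log2 scale (-0.02 to 0.12). *Cdk4*, named after its values were seen, had a mean of 322 CPM at 0 h and 313 CPM at 36 h in CreER (edgeR log2 fold change -0.03, adjusted p 0.587). In O4AID it went from 359 to 292 CPM at 24 h (log2 ratio -0.30), inside 1.5-fold.

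The E cyclins, which activate CDK2 at the start of S phase, fell by small amounts in CreER. *Ccne1* stood at 329 and 315 CPM at 0 h, 336 and 314 at 12 h, 308 and 304 at 18 h, 294 and 285 at 24 h, and 275 and 275 CPM at 36 h. The fall was called at 24 h (log2 fold change -0.14, SE 0.041, adjusted p 0.0114) and 36 h (-0.22, SE 0.041, adjusted p 0.000134). The 24 h call was lost without replicate 1 of 0 h (adjusted p 0.0747) or replicate 2 of 24 h (0.128) and with total-count scaling (0.0695). In O4AID *Ccne1* ran from 114 CPM at 0 h through 117, 108 and 108 to 100.4 CPM at 24 h. Its log2 ratio at 24 h was -0.18 (95% counting interval -0.24 to -0.13) and -0.08 with total-count scaling.

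*Ccne2* stood at 36.5 and 37.7 CPM in CreER at 0 h and fell to 32.5 and 32.9 CPM at 24 h (log2 fold change -0.17, SE 0.058, adjusted p 0.0321) and 30.6 and 31.3 CPM at 36 h (-0.25, SE 0.060, adjusted p 0.00143). The 24 h call was lost in 7 of the 12 alternative settings, with adjusted p of 0.166 without replicate 2 of 0 h, 0.146 and 0.11 without replicate 1 or 2 of 24 h, 0.1 with DESeq2, 0.0818 with total-count scaling, 0.0547 with only the 4 libraries compared and 0.0506 without a filter. The replicates at 12 and 18 h, at 33.5 to 34.9 CPM, also lay below both untreated ones. Neither time was called, so this separation alone is no evidence of an earlier fall. In O4AID it stood at 18.0, 19.4, 15.1, 16.0 and 22.3 CPM in order of time, so it was lowest at 6 h and highest at 24 h. Its log2 ratio at 24 h was 0.30 (95% counting interval 0.17 to 0.43), under the 1.5-fold line. *Ints8* on the opposite strand overlaps 17.4% of its exon bases and held 1672 to 4767 reads per library.

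At 24 h the CreER calls rested on few libraries. With replicate 2 of 24 h left out 2 members were called, with replicate 1 of 24 h left out 3, and with replicate 2 or 1 of 0 h left out 4 or 5. DESeq2 called 3, total-count scaling and the fit of only the 4 libraries compared called 4 each, and no filter left 5. *Ccnd1* and *Cdk6* were called at 24 h in all 12 alternative settings, *Ccne1* in 9, *Ccnd2* in 8, *Ccnd3* in 7 and *Ccne2* in 5. At 36 h the 6 members were called in all 12 alternative settings run for that time, which left out the replicates of 0 h and 36 h in turn.

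The S phase and mitotic cyclins were not called at any time in CreER. *Ccna2* stood at 312 and 288 CPM at 0 h and 298 and 292 CPM at 36 h, with an approximate 95% interval of the log2 fold change from -0.09 to 0.07. At 24 h both *Ccna2* replicates, at 283 and 274 CPM, were just below the untreated ones (log2 fold change -0.10, adjusted p 0.102), and without replicate 2 of 0 h that value was -0.15 with an adjusted p of 0.0205. *Ccnb1* stood at 149 and 139 CPM at 0 h and 143 and 155 CPM at 36 h (log2 fold change 0.06, approximate 95% interval -0.03 to 0.15).

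Both were lower in O4AID at 24 h. *Ccna2* stood at 284, 279, 304 and 271 CPM at 0, 1.5, 6 and 10 h and at 197 CPM at 24 h, a log2 ratio of -0.52 (95% counting interval -0.56 to -0.48) and just inside 1.5-fold. *Ccnb1* stood at 413, 443, 424 and 379 CPM and then at 254 CPM at 24 h, 1.63-fold below 0 h (log2 ratio -0.70, 95% counting interval -0.73 to -0.67). With its copies added the *Ccnb1* value at 24 h was also -0.70. For *Ccnb1* alone with total-count scaling it was -0.59, close to the 1.5-fold line. *Exosc9*, on the opposite strand, overlaps 12.5% of the exon bases of *Ccna2* and held 869 to 1577 reads per library. At 10 h the log2 ratios were -0.07 for *Ccna2* (95% counting interval -0.11 to -0.03) and -0.12 for *Ccnb1* (-0.15 to -0.09). With total-count scaling these 10 h values were 0.01 and -0.04, so the sign for *Ccna2* depended on the scaling. Most of the difference seen at 24 h came after the 10 h library.

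The inhibitor genes stayed near their starting levels in CreER. *Cdkn1b* encodes p27, which binds and blocks CDK2 complexes, and stood between 26.5 and 29.0 CPM in all 10 CreER libraries. Its log2 fold change at 36 h was 0.04 (approximate 95% interval -0.09 to 0.17, adjusted p 0.695). In O4AID it stood at 68.1, 63.4, 65.4, 58.3 and 57.5 CPM, a log2 ratio of -0.24 at 24 h (95% counting interval -0.32 to -0.17), which was -0.14 with total-count scaling.

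*Cdkn2a* encodes the CDK4 and CDK6 inhibitor INK4A and, from another first exon, the p53 activator ARF. It stood between 5.80 and 7.46 CPM in the CreER libraries, with a log2 fold change at 36 h of 0.07 (approximate 95% interval -0.16 to 0.30, adjusted p 0.679). In O4AID it stood at 25.7, 23.3, 19.1, 20.6 and 28.8 CPM, lowest at 6 h and highest at 24 h, and no time passed 1.5-fold. Its 24 h log2 ratio was 0.16 (95% counting interval 0.05 to 0.27).

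The 2 starts of *Cdkn2a* are shown because the counts add up both products. On chromosome 4, minus strand, the window of the ARF start holds 216 bases outside annotated exons at chr4:89294654-89294869 and that of the INK4A start 250 bases at chr4:89282193-89282442 (RefSeq, GRCm38.p6). Capitals mark the only motif match found.
Cdkn2a ARF start: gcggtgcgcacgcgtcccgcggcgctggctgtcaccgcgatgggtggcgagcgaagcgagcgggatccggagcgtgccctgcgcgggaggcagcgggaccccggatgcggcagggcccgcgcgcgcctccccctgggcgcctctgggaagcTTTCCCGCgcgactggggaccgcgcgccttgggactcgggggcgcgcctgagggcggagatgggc
Cdkn2a INK4A start: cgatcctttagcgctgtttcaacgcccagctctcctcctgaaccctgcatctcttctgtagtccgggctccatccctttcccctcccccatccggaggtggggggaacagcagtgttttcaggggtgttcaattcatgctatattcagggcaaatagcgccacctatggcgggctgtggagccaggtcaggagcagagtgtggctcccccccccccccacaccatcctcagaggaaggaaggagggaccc

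Promoter windows of 300 bases, 250 before and 50 after the start, were matched for 6 members (8 windows), namely *Ccnd3*, *Ccne1*, *Ccnb1*, *Cdkn1b*, *Cdkn2a* and *Cdk6*, and not for *Ccnd1*, *Ccnd2*, *Ccne2* and *Ccna2*. Both strands were searched for E2F letters (TTTCCCGC, TTTCGCGC, TTTGCCGC or TTTGGCGC), the cell cycle homology region (TTTGAA), the octamer that OCT4 can bind (ATGCAAAT) and a TCF string (CTTTGAT), of which the homology region and TCF strings share TTTGA. The single match was TTTCCCGC, 99 bases before the ARF start of *Cdkn2a*. Of all 32851 windows in the table, 2.26% held an E2F string, 17.9% the homology region, 1.74% the octamer and 3.73% the TCF string. A match is letters in a window and no evidence of binding.

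**Figure D4:**
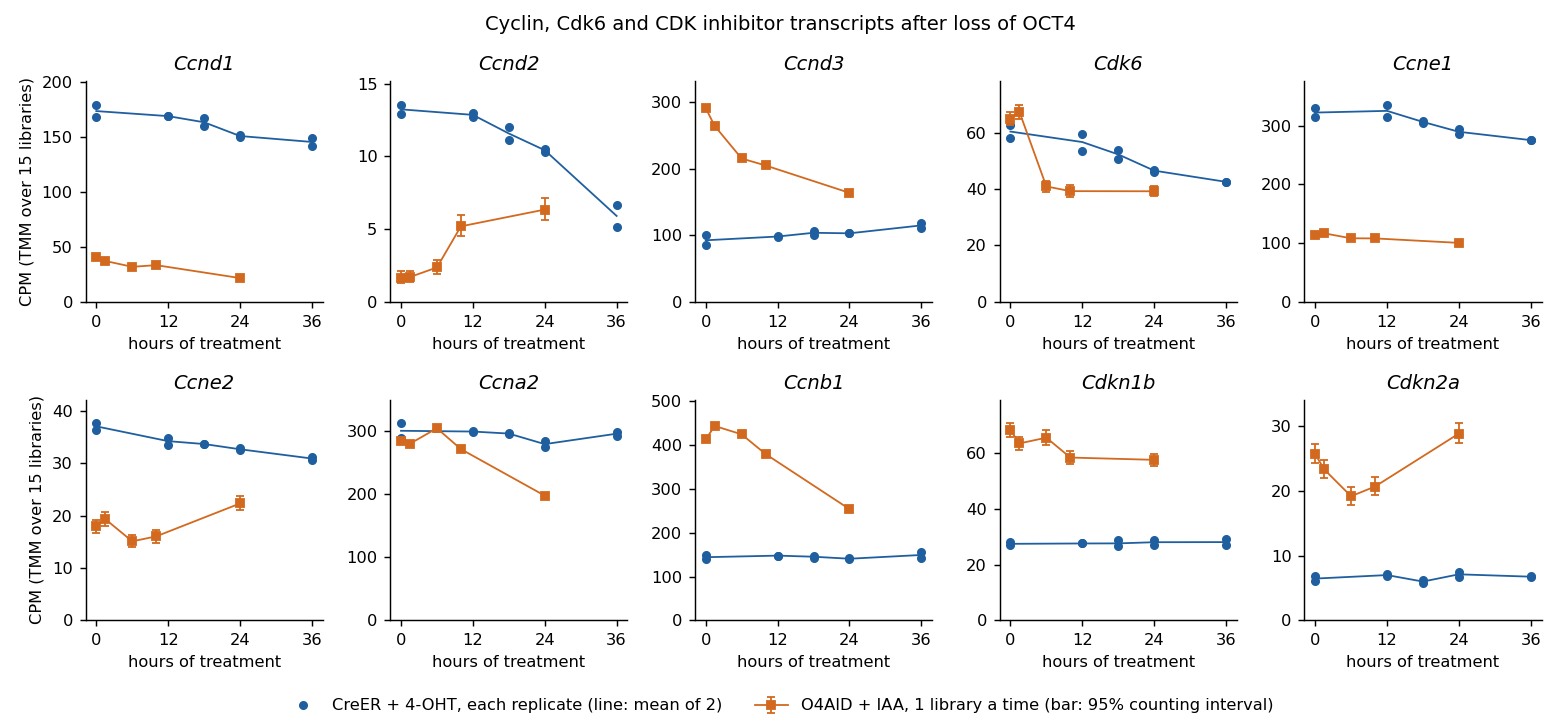
CPM of each member (vertical axis, TMM over 15 libraries, from 0) against hours of treatment. Blue points are the CreER replicates with a line through the mean of 2, and orange squares are the single O4AID libraries with 95% counting intervals; *Cdk6* starts at a like level in both lines, while the *Ccnd2* curves converge and those of *Ccnd1*, *Ccnd3*, *Ccne1*, *Cdkn1b* and *Cdkn2a* stay apart.

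Members were then compared by the shape of their time courses, as Pearson's r of log2 CPM over the 15 libraries after each line was centred on its own mean. These values describe libraries that share treatment times and scaling, and carry no p. The pair most alike was *Ccna2* and *Ccnb1* (r 0.937), followed by *Ccnd1* and *Ccna2* (0.816) and *Ccne1* and *Cdk6* (0.805). A high r over both lines need not mean like courses in each line. In CreER at 36 h *Ccnd1* was called lower (log2 fold change -0.24) and *Ccna2* was not called (-0.01). The pair most opposed was *Ccnd2* and *Ccnd3* (r -0.851). Among 12775 genes the 3 most like *Cdk6* were *Phc1* and *Pias2* (both r 0.98) and *Tet2* (0.977), of which *Phc1* encodes a Polycomb protein and *Tet2* an enzyme that oxidises methylated cytosine. Those most like *Ccnd1* were *Adam19* (0.988), *Eras* (0.976) and *Uqcrc1* (0.975), where *Eras* encodes an ESC-expressed RAS protein. *Adam23*, *Acer2* and *Uhrf1bp1l* (r 0.97 to 0.944) were nearest to *Ccnd2*, and *Tmcc2*, *Tead4* and *Bach2* (0.973 to 0.961) to *Ccnd3*. *Ccne1* was nearest to *Cdyl2*, *Gpn1* and *Resf1* (0.965 to 0.959). The inhibitors had weaker neighbours, *Cyp4f39*, *Rtkn* and *Cnga3* for *Cdkn1b* (0.835 to 0.818) and *Krtcap3*, *Hyi* and *Kif16b* for *Cdkn2a* (0.841 to 0.832).

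The wider cell cycle machinery was read from 6 lists of 78 other genes. In CreER edgeR called 0 of the 78 higher and 1 lower at 12 h, 1 and 6 at 18 h, 7 and 20 at 24 h, and 14 and 23 at 36 h, with a median log2 fold change of -0.05 at 36 h. At 24 h these were 8.97% higher and 25.6% lower, beside 11.0% and 10.6% of all genes, and at 36 h 17.9% higher and 29.5% lower, beside 19.4% and 17.2%. The 1 gene called at 12 h was *Mycn*, at -0.26, and the 1 called higher at 18 h was *Cdkn1a*, at 0.32. In O4AID 77 could be measured, of which 0 were past 1.5-fold at 1.5 h, 1 at 6 h (*Mybl2*) and 3 at 10 h (*Mybl2*, *Orc1* and *Rrm2*), all lower, and at 24 h 2 were higher and 15 lower (2.6% and 19.5%, beside 12.8% and 10.8% of all genes). The O4AID median moved from -0.03 at 1.5 h to -0.10, -0.21 and -0.35 at 6, 10 and 24 h. With total-count scaling, whose factors move CPM at 24 h against 0 h by 0.107 on the log2 scale before the 1 CPM is added, 10 of the 77 were past 1.5-fold at 24 h.

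Other CDK inhibitors, 5 genes, were the list with the highest median in both systems, at 0.42 in CreER at 36 h and 0.22 in O4AID at 24 h. *Cdkn2b*, which encodes INK4B, rose in CreER at 36 h (3.16 to 5.57 CPM, log2 fold change 0.83, adjusted p 8.66e-05) and was past 1.5-fold in O4AID at 24 h (2.72 to 5.64 CPM, log2 ratio 0.84). *Cdkn1a*, the p21 gene, rose in CreER from 23.1 to 30.5 CPM (log2 fold change 0.42, adjusted p 0.000216) and stood at a log2 ratio of -0.11 in O4AID at 24 h. *Cdkn1c*, the p57 gene, was past 1.5-fold in O4AID at 24 h (2.27 to 4.50 CPM, log2 ratio 0.75). *Cdkn2c* and *Cdkn2d* passed in neither.

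Among the 15 RB and E2F genes, CreER calls at 36 h were 4 higher and 7 lower with a median of -0.24. These were 26.7% higher and 46.7% lower, beside 19.4% and 17.2% of all genes. *Rb1*, which encodes the RB protein, rose from 21.2 to 36.5 CPM (log2 fold change 0.80, SE 0.068, adjusted p 2.77e-10), and its relative *Rbl2* rose by 0.31 (adjusted p 0.0197), beside *E2f6* and *Lin54*, which are named after their values were seen. *Mybl2*, the MYB protein of the complex that drives late cell cycle genes, fell from 540.0 to 370.0 CPM (log2 fold change -0.53, adjusted p 3.16e-11) and *E2f8*, a repressor E2F, by 0.50 on the log2 scale (adjusted p 1.77e-08). In O4AID *Mybl2* was the only gene of this list past 1.5-fold (6.67% lower at 24 h, beside 10.8% of all genes). Its log2 ratios were -0.78, -1.10 and -2.08 at the last 3 times (657 CPM untreated and 154 CPM at 24 h).

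The 13 genes of CDK switches and proteolysis held the largest CreER falls of the lists, *Myc* (24.5 to 10.6 CPM at 36 h, log2 fold change -1.21, adjusted p 1.22e-11) and *Mycn* (175 to 97.1 CPM, -0.83, adjusted p 2.64e-14). Both are growth transcription factors. In O4AID *Mycn* went from 60.2 to 20.4 CPM at 24 h (log2 ratio -1.52), and *Gmnn*, which blocks relicensing of replication origins, was at -0.67. *Myc* stood at 0.0225 CPM at 0 h in O4AID and 0.0879 CPM at 24 h, and was the 1 list gene below the level needed for a ratio. The phosphatase *Cdc25c* and the ubiquitin ligase scaffold *Cul4a* rose in CreER at 36 h, by 0.41 and 0.30 on the log2 scale (adjusted p 5.49e-05 and 2.33e-06).

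The medians of the S-phase and mitotic lists lay nearer 0 in CreER at 36 h than in O4AID at 24 h, a difference that was not tested. Of 18 S-phase genes 2 rose and 5 fell in CreER at 36 h (11.1% and 27.8%, beside 19.4% and 17.2% of all genes, median -0.09), among them *Cdc6* at 0.33 and *Cdc45* at 0.22, which load and start replication forks, and the helicase subunit *Mcm2* and polymerase subunit *Pola1* at -0.21 and -0.19. *Mcm3* and *Chaf1a*, named after their values were seen, also fell, by 0.12 and 0.19 on the log2 scale. In O4AID 6 of 18 were past 1.5-fold at 24 h, all lower (33.3%, beside 10.8% of all genes), with a median of -0.45, led by *Rrm2*, the ribonucleotide reductase subunit, at -0.76 and *Mcm3* at -0.74. Of 16 mitotic genes 4 fell in CreER at 36 h (25%, beside 17.2% of all genes), led by the kinases *Plk1* at -0.21 and *Bub1* at -0.18 and joined by *Ttk* and *Birc5*, with a list median of -0.04. In O4AID 3 of 16 were past the fold downwards (18.8%, beside 10.8% of all genes), namely *Cenpf* at -0.78, *Aurka* at -0.74 and *Bub1* at -0.67, with a median of -0.47.

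CDK subunits and partners, 11 genes, gave 2 calls in each direction in CreER at 36 h. That is 18.2% each way, near the shares of all genes (19.4% higher and 17.2% lower). *Ccnb2* and *Ccnf* were higher (0.14 and 0.12) and *Cdk2* and the CDK adaptor *Cks1b* lower (-0.25 and -0.12). Both E cyclins were also called lower at 36 h in that line, while *Ccna2* was not called. Whether these changes are linked was not tested. In O4AID *Cdk1*, the partner of cyclin B, went from 219 to 114 CPM at 24 h (log2 ratio -0.93), and *Ccna1*, which had a mean of 42 reads and is named after its value was seen, was at -0.69.

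**Figure D5:**
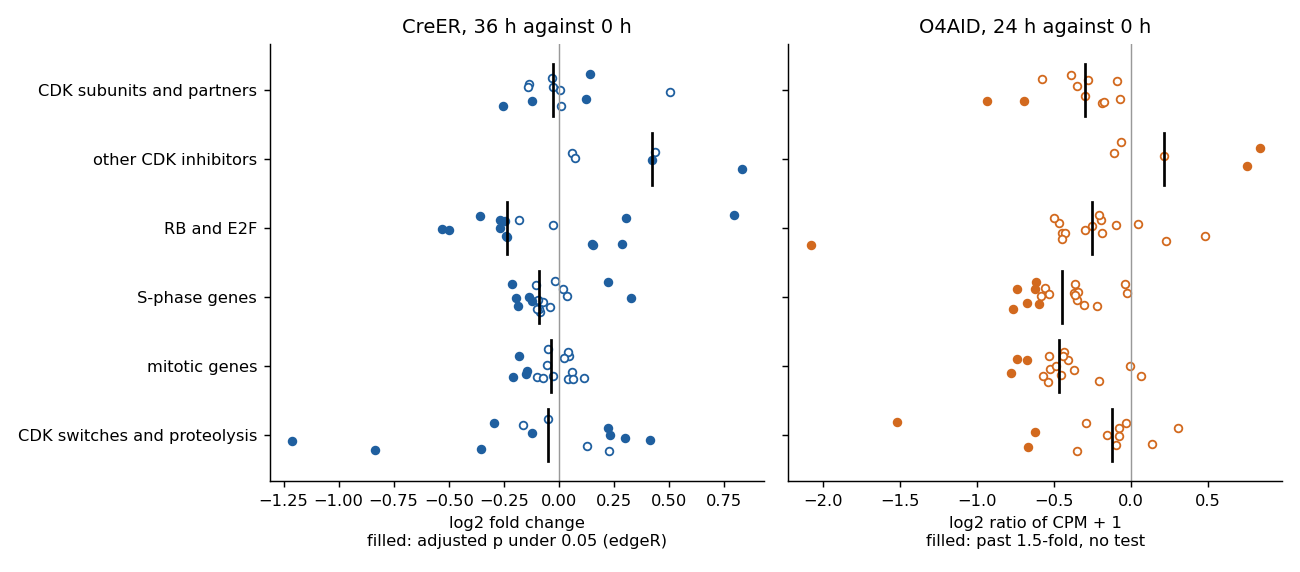
Each point is a gene of 1 of the 6 lists, at its log2 change in CreER at 36 h (left) or O4AID at 24 h (right), with a black bar at the list median and filled points for genes called or past 1.5-fold. The bar of the other CDK inhibitors lies right of 0 in both panels, and the bars of the S-phase and mitotic lists lie at -0.45 and -0.47 on the right.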

How the data were processed

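RNA-seq gene counts of 15 libraries (10 CreER, 5 O4AID) were used, grouped by the time, line and replicate that their labels give. The authors made ribosome-depleted directional paired-end libraries, aligned reads to GRCm38/mm10 and deposited raw counts per gene. The submitters' processing notes name Trim Galore 0.1.4, TopHat2 2.1.0 and featureCounts 1.5.1, while strand and multimapping settings are not given in the sources used here. The deposited normalised matrix was not used. Of 48801 entries the 92 spike-ins held 0 reads and were left out, and 48349 of 48709 genes were matched to a symbol. Each CreER library held 21.7 to 30.8 M (mega) reads and each O4AID library 40.5 to 48.7 M, and intervals cover counting error only.

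The 10 CreER libraries were fitted together with the edgeR 4.0.16 quasi-likelihood test in R 4.3.3 (TMM, filterByExpr, robust, prior count 0.125), each time against 0 h, with Benjamini-Hochberg adjustment over 18969 genes and calls at an adjusted p under 0.05. The study called genes with NOISeq-sim, which simulates replicates, and edgeR was used in its place because the counts have replicates. O4AID values are log2 ratios of TMM CPM plus 1 with 95% Wilson intervals carried to the ratio (SciPy 1.17.1), and a gene was counted past 1.5-fold at 1 CPM or more in either library. DESeq2 1.42.0 and limma 3.58.1 (voom) were alternatives, and scripts were tested on simulated data.

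The members, lists, motifs and naming rule were chosen with earlier results of these data known. The rule named every member and, per list, up to 2 genes in each direction with the largest change in CreER at 36 h and in O4AID at 24 h, at a mean of at least 50 counts, and for 7 members the 3 genes most alike. Near copies were sought with BLAST 2.17.0 among GENCODE transcripts, and promoter sequences are from RefSeq (GRCm38.p6).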

Additional observations from a re-analysis of the deposited data

Results flagged for a closer look

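At 24 h, the time both systems share, 3 members moved one way in both CreER replicates and the other way in the O4AID library. *Ccnd2* was at a log2 change of -0.34 in CreER and 1.46 in O4AID. *Ccnd3* was at 0.17 in CreER and -0.83 in O4AID. *Ccne2* was at -0.17 in CreER and 0.30 in O4AID, where 24 h was the highest of its 5 libraries. Over the 12 alternative settings the CreER value at 24 h ran from -0.37 to -0.30 for *Ccnd2*, 0.05 to 0.28 for *Ccnd3* and -0.20 to -0.15 for *Ccne2*. None of these 3 calls held in every setting. The share of all genes that moved in opposite ways was not counted. The differences between the systems were not tested, since O4AID has 1 library at each time. The CreER values are edgeR log2 fold changes and the O4AID values ratios of CPM plus 1. The untreated levels also differed, with CreER higher 7.95-fold for *Ccnd2* and 2.06-fold for *Ccne2* and O4AID 3.15-fold higher for *Ccnd3*.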

How the results depend on the processing

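Of the settings tried, none reversed a called change. CreER calls among the 10 members at 18 h (1 as reported) were 2 without a filter, with at least 10 counts in every library, with limma-voom or with the replicate block, 0 with DESeq2 or only the 4 libraries compared, and 0 to 1 on leaving out 1 library. The replicate block changed no other count of members. The replicate numbers do not pair the samples, whose deviations correlated between times at -0.0161 to 0.052. At 24 h the member calls (6) were 3 with DESeq2 and 2 to 5 on leaving out 1 library, and at 36 h they were 6 throughout. For the 78 other cell cycle genes the CreER calls were 2 without a filter at 12 h (1 as reported), and leaving out 1 library gave 0 to 2 at 12 h, 3 to 12 at 18 h and 14 to 24 at 24 h. In O4AID a fold of 2 left 0, 1 and 1 members at 6, 10 and 24 h, and 0, 1 and 2 list genes. At 10 h at least 10 CPM left 1 member. List genes past the fold were 2 at 6 h with total-count scaling, a pseudocount of 0.1 or TMM over the 5 O4AID libraries, the last chosen after seeing the data. At 10 h they were 5 with a pseudocount of 0.1 and 1 with the 1.5 h library as reference, and at 24 h 10 with total-count scaling. Low counts limit *Ccnd2* in O4AID (74 reads at 0 h).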
